A study of Rattus norvegicus with 19 samples.

Results

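Left ventricles of Dahl salt sensitive rats that had received enalapril, an inhibitor of angiotensin-converting enzyme (ACE), were compared with left ventricles of rats of the same strain taken before any treatment began. The comparison takes the 3 arrays of the group labelled high salt with enalapril and vehicle and the 4 arrays of the group labelled high salt control, 7 of the 19 arrays in the series, and covers 14217 genes. All rats were male and of the Harlan SS/Hsd strain, and from 6 weeks of age ate a diet with 6% NaCl in place of normal chow, which was used to produce pressure overload hypertrophy. The untreated rats, here called baseline, were 11 weeks old and had eaten the salty diet for 5 weeks. The enalapril rats were 15 weeks old and had eaten it for 9 weeks. During the last 4 of these weeks an osmotic pump delivered enalapril at 90 ug per day, and the rats also received vehicle injections (propylene glycol with ethyl alcohol) 3 times per week. The dose is described as low, chosen by the submitters to be the highest that left blood pressure without a significant fall. Another group is set beside these where the age matters: 4 vehicle rats, also 15 weeks old, with 9 weeks of the diet and the same injections but no enalapril. Enalapril rats therefore differed from baseline rats in age, time on the diet, injections, pump and drug at once, and these cannot be told apart in this comparison. The numbers in the sample descriptions also form a separate run for each group, so a cohort cannot be told apart from a group either. The remaining groups received paricalcitol without or with enalapril. They enter the shared steps: the normalization, the choice of probe set, the estimate of the spread and the mean from which list scores deviate. Beyond these steps, only their means of Cacna2d1, Ccdc71 and Hdgf are given.

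ACE cuts angiotensin I to angiotensin II, a peptide that constricts vessels, promotes release of aldosterone and acts on cardiac fibroblasts and muscle through the type 1 angiotensin receptor; the same enzyme inactivates bradykinin. In the salt-loaded Dahl strain, blood pressure climbs with age and the left ventricle thickens, later dilates and fails. The pressure-loaded ventricle is known for a fetal gene programme (natriuretic peptides, beta myosin heavy chain, skeletal actin), for added collagen and other matrix, and for altered fuel use. ACE inhibitors are known to limit both hypertrophy and matrix growth in many such models.

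Each array measured 1 left ventricle by hybridisation of labelled cRNA, and its values are intensities with a background subtracted, of which 16% to 18.2% per array were below 0. Medians ran from 43.6 to 72.6 intensity units over the 19 arrays, so the arrays were quantile normalized, negative values were set to 0, and levels are given as log2 of the value plus 16. On this scale 4 is the floor, the median gene lies at 7.07, and a probe on the floor has no measured level. Intensity has no count behind it, and the number of arrays limits the precision. Replicate numbers were given per sample, and nothing in the labels states separate litters, so p-values measure the spread between these samples. Cardiomyocyte markers were bright on every array, with 0 of 10 on the floor in either group and a summed level of 128600 to 138400 at baseline and 129000 to 138700 with enalapril. Of 8 atrial markers, 1 was on the floor on all 7 arrays: Sln, the atrial pump inhibitor sarcolipin. Myl7, another of them, was dim and uneven, with deposited intensities of 13.1 to 93.02 at baseline and 35.29 to 96.91 with enalapril. The list's mean deviation from the 19-array mean ran from -0.27 to 0.30 at baseline, highest on replicate 4. With enalapril it ran from -0.06 to 0.09. The share of atrial tissue was not tested. Baseline replicate 4 stood apart from the other baseline arrays in several muscle genes: its alpha myosin heavy chain gene Myh6 read 11.57 against 13.11 to 13.35, its junctional protein gene Jph2 10.90 and its calcium handling gene Asph 10.35. Values without that array stand beside several results.

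Of 14217 genes, 2 passed the limma test at a Benjamini-Hochberg adjusted p under 0.05 in enalapril against baseline, which is 0.0141% of the genes tested; both fell, and 0 rose. They were Thbd, which encodes thrombomodulin, the endothelial receptor that turns thrombin towards protein C activation and anticoagulation, and Nmu, which encodes the neuropeptide neuromedin U. At an unadjusted p under 0.05 there were 1146 genes (8.06%), of which 491 were higher (3.45%) and 655 lower (4.61%). For 1268 genes (8.92%) the 3 enalapril arrays did not overlap the 4 baseline arrays, with 4.24% of genes higher and 4.68% lower. A single-gene exact permutation test of 3 against 4 cannot go below p = 0.0571, so no gene was tested that way. A difference of more than 1 on the log2 scale was found for 138 genes, and the median SE of a gene was 0.18.

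Thbd read 10.06, 9.97, 9.89 and 9.86 on the 4 baseline arrays and 9.46, 9.27 and 9.45 on the 3 enalapril arrays. Every enalapril array lay below every baseline array, and the gap between the groups was wider than the range within either. The level fell by 0.55 on the log2 scale (SE 0.08, limma adjusted p = 0.044), or 31.6% on the scale of value plus 16. The deposited intensities before normalization were 968.36 to 1267.99 at baseline and 605.13 to 805.9 with enalapril. The array holds 3 probe sets for Thbd, and the other two differed in the same direction, by -0.53 and -0.31. Thbd of the 4 vehicle arrays read 9.31 to 9.65, a difference of -0.49 from baseline. On rat chromosome 3 in the GRCr8 annotation, Thbd lies between the protein-coding genes Sstr4 and Cd93. Cd93 encodes another endothelial membrane protein with a C-type lectin domain and is described with the endothelial genes.

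Nmu read 5.14, 5.28, 5.51 and 4.84 at baseline and 4.00 on each enalapril array, that is, on the floor. The deposited intensities were 26.17, 23.68, 30.39 and 13.13 at baseline and -22, -11.88 and -18.55 with enalapril, so the gene was dim before treatment and listed below 0 afterwards. On the vehicle arrays the level was 4.00 to 4.01. The limma adjusted p was 0.044; no fold is given against a group on the floor. Both calls were close to the threshold. Leaving out an array gave 0 genes without baseline replicate 1 or enalapril replicate 3, 1 gene without baseline replicate 2 (Far1), without baseline replicate 4 (Nmu) or without enalapril replicate 1 (Tektl1), 2 genes without enalapril replicate 2 (Mov10l1 and Nell2) and 5 genes without baseline replicate 3, among them Thbd. The Thbd difference itself kept to -0.58 to -0.49 over these omissions, with limma adjusted p between 0.0459 and 0.211. Those of Nmu lay between 0.0317 and 0.195. Far1, a fatty acyl-CoA reductase of ether lipid synthesis, was near the floor at baseline (4.46 to 5.84) and on it on all 3 enalapril arrays.

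**Figure D1:**
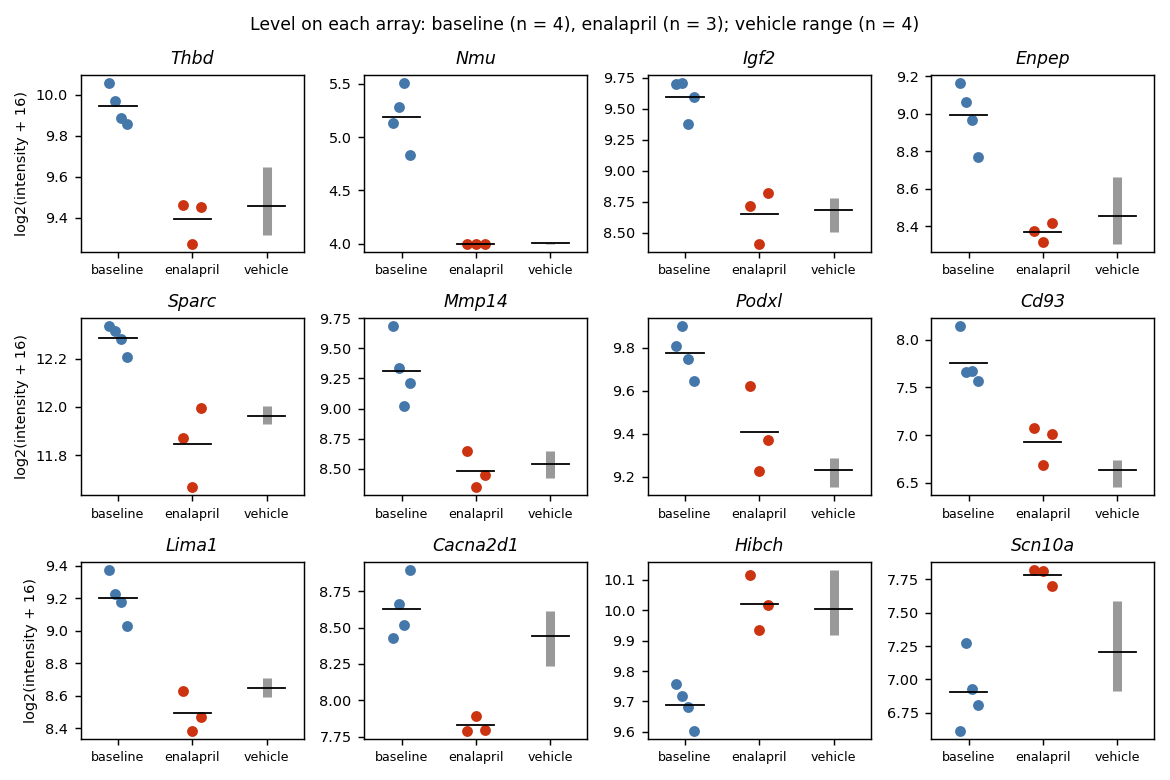
Levels of 12 genes on single arrays, as log2 of normalized intensity plus 16, for baseline (blue points, n = 4) and enalapril (red points, n = 3); grey bars span the 4 vehicle arrays and black lines are group means. Thbd and Nmu passed the test, the other panels did not, and in each panel the red points lie clear of the blue ones.

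The stretch of genome before the start of a gene holds binding sites for many of its regulators. For 3 genes lower on every enalapril array, the neuropeptide gene Nmu, the angiotensin-cleaving enzyme gene Enpep and the matrix gene Sparc, the 250 bases before the start are shown from RefSeq in the GRCr8 build. They were searched on both strands for CACCC, the core of sites for Krüppel-like factors such as endothelial KLF2, and for AGGAAG, a core of ETS factor sites. Capitals mark each match, and no match in these windows overlaps another. CACCC occurs in 49.2% of 33469 rat promoters of this length and AGGAAG in 29.5%. The windows are chr14:32198693-32198942 on the plus strand for Nmu, chr2:220526219-220526468 on the minus strand for Enpep and chr10:40038817-40039066 on the minus strand for Sparc.
Nmu: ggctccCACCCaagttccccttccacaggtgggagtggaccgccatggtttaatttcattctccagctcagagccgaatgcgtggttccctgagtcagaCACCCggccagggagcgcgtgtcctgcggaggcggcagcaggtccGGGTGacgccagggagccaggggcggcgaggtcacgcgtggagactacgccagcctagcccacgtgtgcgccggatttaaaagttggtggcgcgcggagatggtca
Enpep: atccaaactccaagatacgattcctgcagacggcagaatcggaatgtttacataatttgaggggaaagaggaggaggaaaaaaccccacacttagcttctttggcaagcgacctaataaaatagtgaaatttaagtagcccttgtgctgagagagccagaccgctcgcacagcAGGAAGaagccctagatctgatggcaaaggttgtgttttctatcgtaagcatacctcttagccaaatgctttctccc
Sparc: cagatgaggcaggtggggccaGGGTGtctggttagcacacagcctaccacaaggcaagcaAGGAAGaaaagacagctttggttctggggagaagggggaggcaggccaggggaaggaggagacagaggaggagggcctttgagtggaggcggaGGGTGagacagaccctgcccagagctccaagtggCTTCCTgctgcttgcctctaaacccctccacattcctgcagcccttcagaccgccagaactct
Nmu held 3 matches to CACCC and 0 to AGGAAG, Enpep 0 and 1, and Sparc 2 and 2. These are matches of letters, and binding was not measured.

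Several further genes were lower with enalapril, without overlap, and did not pass the test. The first is Igf2, a fetal growth factor, which read 9.70, 9.71, 9.38 and 9.59 at baseline and 8.71, 8.41 and 8.82 with enalapril. The groups were separated by more than the range of either, and the difference was -0.95 (SE 0.15, limma adjusted p = 0.0539), or 48.1% lower on the scale of value plus 16. It rests on 1 of 4 probe sets: 2 were on the floor and the other differed by 0.48, so the mean over probe sets differed by only -0.12. Lima1, which encodes an actin-bundling LIM protein, read 9.38, 9.23, 9.18 and 9.03 at baseline and 8.63, 8.38 and 8.47 with enalapril. Its difference of -0.71 (SE 0.12) had a limma adjusted p of 0.0794, and a second, dimmer probe set differed by -0.70.

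Cacna2d1 encodes the alpha-2-delta subunit of voltage-gated calcium channels, which carries the channel to the cell surface. It read 8.43, 8.67, 8.52 and 8.90 at baseline and 7.79, 7.89 and 7.80 with enalapril, a difference of -0.80 (SE 0.14, limma adjusted p = 0.0794). The enalapril arrays also lay below all 4 vehicle arrays, at 8.23 to 8.62. Ccdc71, a coiled-coil protein gene, read 7.69, 7.81, 7.72 and 7.63 at baseline and 7.35, 7.17 and 7.30 with enalapril (difference -0.44, SE 0.07, limma adjusted p = 0.0539). It too lay below the vehicle range of 7.49 to 7.68. Hdgf, a heparin-binding growth factor gene, was also lower with enalapril than on any baseline or vehicle array, at 8.25 to 8.35 against 8.50 to 8.82 for baseline and 8.52 to 8.68 for vehicle. Low levels of Cacna2d1, Ccdc71 and Hdgf were not particular to enalapril. Their means were 7.83, 7.27 and 8.30 with enalapril and 8.44, 7.60 and 8.60 with vehicle. Paricalcitol rats without enalapril had means of 8.02, 7.35 and 8.28, and rats given both drugs 7.85, 7.35 and 8.15. Rbms1 and Cpsf7, both RNA-binding proteins, and Nav1, a microtubule-associated guidance protein, differed by -0.43, -0.29 and -0.66 with no overlap. A dimmer Nav1 probe set differed by -0.21. When the probe sets of a gene were averaged, the Cpsf7 difference turned to 0.01.

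On the other side, 0 genes rose past the threshold. Scn10a, a voltage-gated sodium channel of sensory neurons that is also linked to cardiac conduction, read 6.62, 7.27, 6.93 and 6.81 at baseline and 7.82, 7.81 and 7.70 with enalapril. All 3 enalapril arrays were higher than any baseline or vehicle array (vehicle 6.91 to 7.59), and the difference was 0.87 (SE 0.20, limma adjusted p = 0.225). Hibch, which encodes an enzyme of valine breakdown, read 9.76, 9.72, 9.68 and 9.60 at baseline and 10.12, 9.93 and 10.02 with enalapril, a difference of 0.33 (SE 0.08). Dtwd1, a tRNA-modifying enzyme gene, had a difference of 0.74, while its other probe set differed by -0.71. The DNA repair gene Ercc1 (0.45), the arginine methyltransferase gene Carm1 (0.34), the cyclin-dependent kinase subunit gene Cks1b (0.40), the IkB kinase gene Chuk (0.34), the lipid-binding protein gene Sec14l1 (0.44), the kinase gene Stk25 (0.43) and Fsd1l (0.27) were also higher on every enalapril array than on any baseline array. Myo5b, an unconventional myosin of vesicle transport, read 4.06 to 5.26 at baseline and 5.83 to 6.20 with enalapril, a difference of 1.25 (SE 0.25, limma adjusted p = 0.151) in a dim gene.

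**Figure D2:**
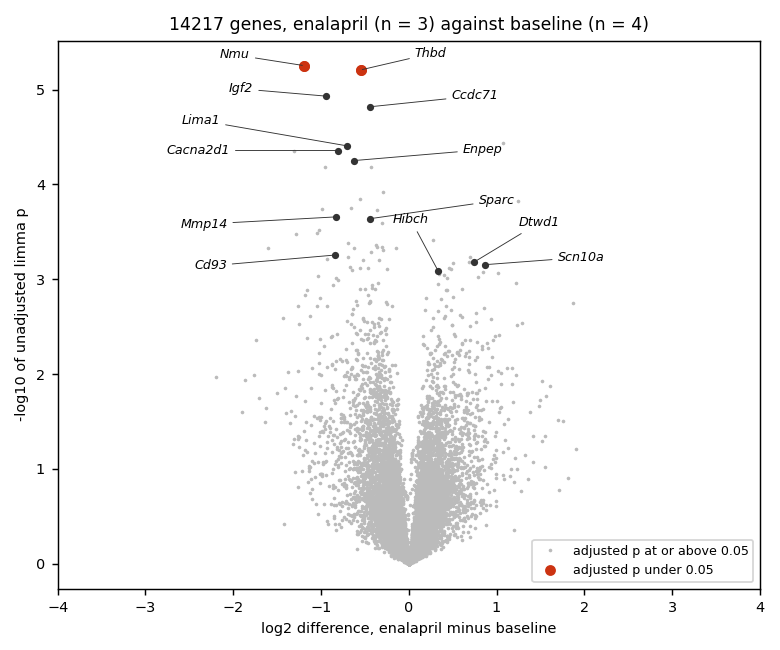
Each point is 1 of 14217 genes, with the log2 difference of enalapril minus baseline on the x axis and minus log10 of the unadjusted limma p on the y axis. Red points (Nmu and Thbd) are the 2 genes with an adjusted p under 0.05; dark points are named genes that did not pass, such as Igf2 at -0.95.

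Genes were next read in 49 lists of pathways and cell markers that held 852 measured genes, against the background of all genes, whose median difference was 0 and of which 52.5% were higher. No member of any of the 49 lists passed the test, so the lists are described by counts and medians. In bulk tissue, fewer cells of a type and less RNA per cell cannot be told apart.

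Extracellular matrix lists lay mostly below baseline. Of 29 fibrillar collagen and interstitial matrix genes, 21 were lower and 8 higher, with a median of -0.23 (-0.37 without baseline replicate 4 or without enalapril replicate 3); 4 were lower at an unadjusted p under 0.05 (against 4.61% of all genes) and 5 were lower without overlap (against 4.68%). Col6a3, a chain of the beaded-filament collagen around cells, read 10.64, 10.21, 9.91 and 9.56 at baseline and 9.46, 9.36 and 9.52 with enalapril. Baseline values were spread over more than 1 unit and the enalapril values sat together just under the lowest of them, a difference of -0.63 (SE 0.23, limma adjusted p = 0.497). Col6a1 had the same shape, at 9.57 to 10.46 and 9.45 to 9.53. Col1a1, the main fibrillar collagen chain, read 12.47, 11.89, 11.67 and 10.96 at baseline and 11.01, 10.27 and 11.15 with enalapril. Its groups overlapped, and the difference of -0.94 (SE 0.40, limma adjusted p = 0.569) was of the order of the baseline SD of 0.62. Col1a2, its partner chain, differed by -0.56 without overlap, or by -0.36 without enalapril replicate 2. Fn1, fibronectin, differed by -0.82 (SE 0.38), or by -0.46 without enalapril replicate 2, whereas Fmod, a collagen-binding proteoglycan, differed by 0.32.

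Matricellular proteins, which sit in the matrix and modulate cells without being structural, had the lowest median of the 35 pathway lists, -0.31 (-0.16 without enalapril replicate 2), with 11 of 14 lower and 4 lower without overlap (against 4.68% of all genes). Sparc, a collagen-binding member, read 12.33, 12.31, 12.28 and 12.21 at baseline and 11.87, 11.67 and 11.99 with enalapril. The baseline SD was 0.06, and all enalapril arrays were lower, a difference of -0.44 (SE 0.09, limma adjusted p = 0.172). A second Sparc probe set differed by -0.32. Tgfbi, a TGF-beta-induced adhesion protein, differed by -0.33 without overlap. Among 22 matrix proteases and inhibitors 14 were lower (median -0.12, or -0.04 without baseline replicate 1 and -0.07 without baseline replicate 2). Mmp14, the membrane-anchored protease that cuts collagen and activates pro-MMP2, read 9.68, 9.33, 9.03 and 9.21 at baseline and 8.65, 8.35 and 8.45 with enalapril. That is a difference of -0.83 (SE 0.17, limma adjusted p = 0.172), and its second probe set differed by -0.53. Mmp2, its substrate, read 9.88 to 10.19 against 9.51 to 9.82 (-0.36), while its dimmer second probe set differed by 0.26 and the mean of both by -0.05. Mmp8, the neutrophil collagenase, was higher with enalapril, at 5.54 to 6.14 against 4.42 to 4.94, both dim. The fibroblast markers moved with these lists: 10 of 11 were lower, with a median of -0.37 (-0.22 without baseline replicate 1 or without enalapril replicate 2). Their summed level was 35780 to 44400 at baseline and 28260 to 35780 with enalapril, and 0 of 11 were on the floor throughout a group. Collagen genes are part of that list, and its part in the matrix result was not tested.

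Endothelial and angiogenic genes also lay lower. Of 27 angiogenic factors and receptors, 23 were lower (median -0.16, or -0.10 without baseline replicate 2), 7 of them at an unadjusted p under 0.05 (against 4.61% of all genes) and 6 without overlap (against 4.68%). Of 14 endothelial markers, 12 were lower (median -0.17, or -0.11 without baseline replicate 1), 5 at an unadjusted p under 0.05 and 5 without overlap, against the same shares of 4.61% and 4.68% of all genes; both lists include Tek. Cd93 read 8.14, 7.66, 7.67 and 7.57 at baseline and 7.07, 6.69 and 7.01 with enalapril. Baseline replicate 1 stood above the other baseline arrays, and all were above the enalapril arrays (difference -0.84, SE 0.19, limma adjusted p = 0.225). Its dimmer second probe set differed by 0.16. Podxl, podocalyxin of the luminal surface, read 9.81, 9.90, 9.75 and 9.65 against 9.62, 9.23 and 9.37, so the groups nearly touched. The Podxl difference was -0.37 (SE 0.08, limma adjusted p = 0.216), and its dimmer probe sets differed by -0.18 and -0.05. Tek, the angiopoietin receptor, read 9.64, 9.62, 9.58 and 9.59 against 9.43, 9.31 and 9.18 (-0.30, SE 0.09). Nrp2, a co-receptor for VEGF and semaphorins, read 7.002 to 7.076 at baseline and 5.80 to 6.51 with enalapril (-0.86, SE 0.21). A second Nrp2 probe set, near the floor, differed by -0.0012. Elk3, an ETS-family transcription factor of vessels (-0.42), and Pdgfa, a platelet-derived growth factor (-0.50, or -0.33 without enalapril replicate 2), were also lower without overlap.

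The defining endothelial genes did not all share this. Pecam1 differed by -0.04, Kdr by -0.11, Flt1 by -0.03, Cldn5 by -0.05 and Vwf by 0.04, as read from the whole list after its values were seen. The summed endothelial level was 8443 to 10570 at baseline and 8614 to 8948 with enalapril, so its groups overlapped. Basement membrane genes, which vessels and muscle cells both make, were lower in 12 of 14 cases with a median of -0.15 (-0.23 without baseline replicate 4). Agrn, agrin, differed by -0.27 without overlap, Nid1 by -0.32 and the collagen chain gene Col4a1 by -0.41, the last 2 with overlap. Of 12 smooth muscle and pericyte markers 9 were lower (median -0.06), among them the pericyte genes Rgs5 (-0.43) and Kcnj8 (-0.24), without overlap. That list's median was 0.0096 without enalapril replicate 2 and -0.01 without replicate 3, but -0.22 without enalapril replicate 1; it was -0.03 without baseline replicate 1 and -0.17 without baseline replicate 4. Its summed level was 16480 to 17020 at baseline and 14590 to 17350 with enalapril.

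**Figure D3:**
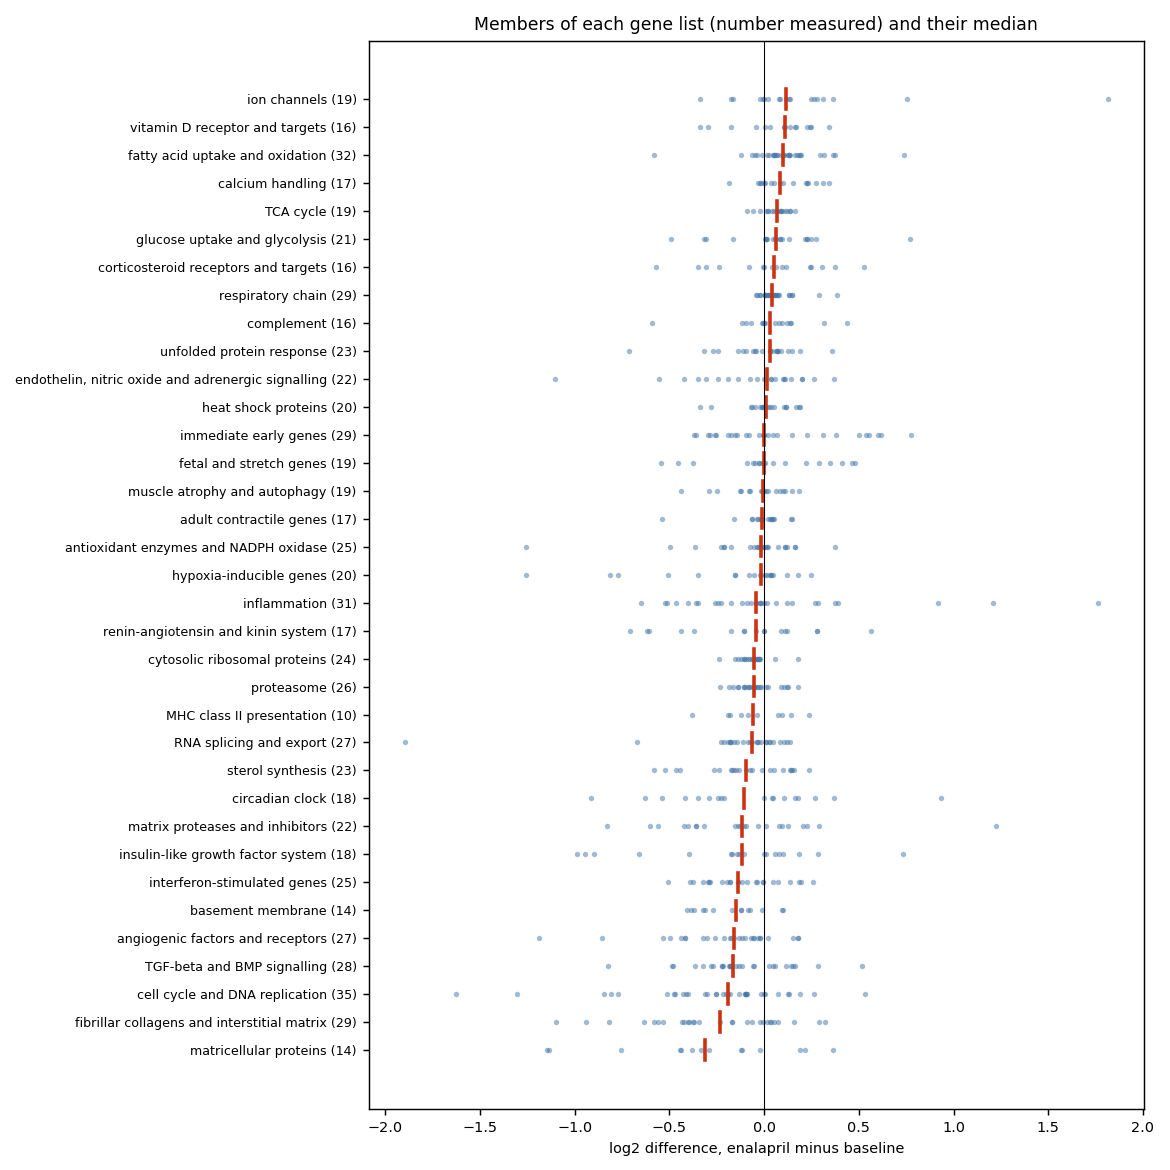
Log2 differences, enalapril minus baseline, of the measured members (blue points; number in brackets) of 35 pathway lists, with each list's median as a red bar. Matricellular proteins have the lowest median, -0.31, and ion channels the highest, 0.12; the median of all genes is 0.

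Growth factor lists held Igf2 and genes near it. In the insulin-like growth factor system 10 of 18 were lower (median -0.12, but -0.03 to -0.06 without baseline replicate 1, 2 or 3 or without enalapril replicate 1) and 4 had an unadjusted p under 0.05, all lower (against 4.61% of all genes). Igf1 read 10.10, 9.72, 9.84 and 9.24 at baseline and 9.53, 8.79 and 8.86 with enalapril, with overlap (-0.66, SE 0.28). H19, the noncoding RNA imprinted together with Igf2, read 8.33, 7.95, 7.36 and 8.11 against 6.82, 6.80 and 7.51, also with overlap (-0.90, SE 0.40). Of 28 TGF-beta and BMP genes 19 were lower (median -0.16, or -0.07 without enalapril replicate 1) and 5 had an unadjusted p under 0.05, all lower (against 4.61% of all genes). Ltbp1, which anchors latent TGF-beta in the matrix, read 8.14, 7.83, 7.73 and 7.77 at baseline and 7.53, 7.31 and 7.31 with enalapril (-0.48, SE 0.14, limma adjusted p = 0.343). The ligand gene Tgfb3 differed by -0.33, also without overlap.

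In the pathway that enalapril acts on, the smallest p-values belonged to peptidases downstream of ACE. Of 17 renin-angiotensin and kinin genes 9 were lower and 8 higher (median -0.04), with 4 at an unadjusted p under 0.05, all lower (against 4.61% of all genes). Enpep, aminopeptidase A, which cleaves angiotensin II to angiotensin III, read 9.17, 9.06, 8.97 and 8.77 at baseline and 8.37, 8.32 and 8.42 with enalapril. The enalapril arrays were closely grouped below all baseline arrays (-0.62, SE 0.11, limma adjusted p = 0.0855). A second Enpep probe set of similar brightness differed by 0.05, so the 2 probe sets disagree. Anpep, aminopeptidase N, which acts on angiotensin III, read 7.10, 6.80, 6.94 and 6.56 against 6.50, 5.75 and 6.17 (-0.71, SE 0.23). Ace itself read 7.42, 7.87, 7.35 and 7.71 against 7.59, 7.72 and 8.29, a difference of 0.28 that lies within its SE of 0.31. Without enalapril replicate 3 it was 0.07, and the dimmer second Ace probe set differed by -0.06. Agtr1a, the type 1 receptor, differed by 0.12 (SE 0.24; 0.04 without baseline replicate 4 and 0.19 without baseline replicate 1), and Agt, the angiotensinogen gene, was on the floor on all 7 arrays. Renin was not analysed here. Of 16 corticosteroid genes 10 were higher (median 0.05, or 0.01 without enalapril replicate 2) and of 16 vitamin D genes 12 (median 0.11, or 0.02 without enalapril replicate 1); Vdr, the vitamin D receptor, differed by 0.34 (SE 0.22), with 0.22 and 0.54 without enalapril replicates 2 and 3. Of 22 endothelin, nitric oxide and adrenergic genes 12 were higher and 10 lower. Nos3, the endothelial nitric oxide synthase, read 8.28, 8.46, 8.18 and 7.81 against 7.93, 7.59 and 7.99 (-0.35, SE 0.13, or -0.23 without enalapril replicate 2), with overlap. The adrenomedullin receptor subunit gene Ramp2 (-0.42) and the guanylate cyclase gene Gucy1a1 (-0.55) were lower without overlap; a dimmer Gucy1a1 probe set differed by 0.0031.

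Genes of the hypertrophic programme held differences of both signs. Of 19 fetal and stretch genes 9 were higher and 10 lower, with a median of -7e-04. Nppa, atrial natriuretic peptide, read 14.39 to 14.42 in both groups; it is among the brightest transcripts, where quantile normalization leaves little room. Its difference of 0.01 was -0.03 in the deposited values and -0.06 after cyclic loess. Nppb, B-type natriuretic peptide, read 13.39, 13.39, 13.72 and 12.75 at baseline and 13.45, 14.05 and 13.83 with enalapril. The groups overlapped, and the difference of 0.47 (SE 0.24) had a limma adjusted p of 0.667; without baseline replicate 4 it was 0.28. Rcan1, a calcineurin target, differed by 0.48 (SE 0.25), and by 0.19 without that array. Myh7, beta myosin heavy chain, and Acta1, skeletal actin, differed by -0.01 and -0.03. The sign of Myh7 was positive with arrays centred on their medians.

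Adult muscle genes also held both signs. Of 17 adult contractile genes 8 were higher and 9 lower (median -0.01, or 0.04 with arrays centred). Myh6 read 13.35, 13.29, 13.11 and 11.57 at baseline and 13.26, 12.14 and 11.47 with enalapril, so each group held both high and low arrays (-0.54, SE 0.52, or -0.96 without baseline replicate 4, -1.02 without enalapril replicate 1 and -0.13 without enalapril replicate 3). Atp2a2, the sarcoplasmic reticulum calcium pump, differed by 0.05, and by -0.03 after cyclic loess. Of 17 calcium handling genes 13 were higher (median 0.08), 0 at an unadjusted p under 0.05 (against 3.45% of all genes). Asph read 11.05 to 11.46 with enalapril and Jph2 11.37 to 11.79, both overlapping baseline. Their differences of 0.34 and 0.27 were 0.18 and 0.13 without baseline replicate 4, Asph was 0.21 without enalapril replicate 2 and Jph2 0.18 without enalapril replicate 1. The array holds 4 Asph probe sets, and the others, all dimmer, differed by 0.50, -0.04 and -0.19. Of 19 ion channel genes 14 were higher (median 0.12, or 0.08 without enalapril replicate 1). Kcnq1, a potassium channel, differed by 0.28 (SE 0.22) and Scn4b, a sodium channel subunit, by 0.36 (SE 0.44). Without baseline replicate 4 these were 0.18 and 0.11, and without baseline replicate 1 Scn4b differed by 0.58.

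Mitochondrial fuel genes were slightly higher as lists. Of 32 genes of fatty acid uptake and oxidation 26 were higher (median 0.10, or 0.05 without enalapril replicate 1). An unadjusted p under 0.05 was reached by 0 of the 32 in either direction (against 8.06% of all genes). Of 19 genes of the TCA cycle 16 were higher (median 0.07, or 0.03 without baseline replicate 4), 2 of them with an unadjusted p under 0.05 (against 3.45% of all genes): Cs, citrate synthase, at 13.06 to 13.18 against 13.19 to 13.32, and Pdha1, of pyruvate dehydrogenase, at 12.57 to 12.77 against 12.77 to 12.83. With probe sets averaged, Pdha1 differed by -0.04; without baseline replicate 3 it differed by 0.07. Of 29 respiratory chain genes 25 were higher (median 0.04, or -0.0011 after cyclic loess), and of 21 glucose uptake and glycolysis genes 17 (median 0.06, or 0.03 without enalapril replicate 3). Acadl, a long-chain acyl-CoA dehydrogenase, differed by 0.11 (SE 0.05, limma adjusted p = 0.667), or by 0.07 without baseline replicate 4 and 0.06 without enalapril replicate 1. Of 23 sterol synthesis genes 15 were lower (median -0.10, or -0.03 without enalapril replicate 1). At an unadjusted p under 0.05, 0 of these were lower (against 4.61% of all genes).

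Stress and growth lists were mixed. Of 20 hypoxia-inducible genes 9 were higher and 11 lower, and the 4 with an unadjusted p under 0.05 were all lower (against 4.61% of all genes lower and 3.45% higher). Hmox1, haem oxygenase, read 8.58, 8.68, 9.60 and 9.89 at baseline and 7.78, 7.79 and 8.22 with enalapril (-1.26, SE 0.42, limma adjusted p = 0.441). Its baseline arrays formed a higher and a lower pair, both above the enalapril arrays. Ddit4, an inhibitor of mTOR signalling, read 9.66 to 10.34 against 9.08 to 9.37 (-0.81, SE 0.31). Cdkn1a, the cell cycle inhibitor p21, read 10.14, 9.81, 9.94 and 10.10 at baseline and 10.35, 10.74 and 10.49 with enalapril. It was higher on all enalapril arrays than on any baseline or vehicle array (0.53, SE 0.17, limma adjusted p = 0.419; vehicle 9.93 to 10.17). Of 35 cell cycle and DNA replication genes 27 were lower (median -0.19, or -0.12 without enalapril replicate 2), 2 at an unadjusted p under 0.05 (against 4.61% of all genes), both resting on dim or uneven values. Prc1, a cytokinesis protein, read 6.56, 6.53, 6.26 and 4.77 against 4.14, 4.00 and 5.07. Mcm7, of the replication helicase, read 7.40, 4.00 and 7.72 with enalapril, so its difference of -1.31 was -0.12 without enalapril replicate 2 and -1.98 without enalapril replicate 3.

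Of 29 immediate early genes 13 were higher, and their mean score differed between enalapril arrays from -0.23 to 0.86. Cebpb, a stress-responsive transcription factor, read 8.88 to 9.31 against 8.41 to 8.82 (0.50). Among 18 circadian genes 9 were higher and 9 lower: Nfil3 read 7.38 to 7.92 against 6.14 to 7.22 (0.93), and Bhlhe41 8.34 to 8.81 against 8.98 to 9.39 (-0.54). Hour of tissue collection is not given in the sources used here. Of 23 unfolded protein response genes 12 were higher, with the chaperones Hyou1 at 0.36 (0.23 without baseline replicate 1) and Hsp90b1 at -0.32. A dimmer Hyou1 probe set differed by -0.0081. Heat shock proteins (20 genes), antioxidant enzymes (25) and muscle atrophy and autophagy (19) had medians of 0.01, -0.02 and -0.0048. Of 27 splicing and RNA export genes 18 were lower (median -0.06, or -0.04 without baseline replicate 1 and -0.11 without enalapril replicate 2), 5 at an unadjusted p under 0.05 (against 4.61% of all genes) and 5 without overlap (against 4.68%). Xpo1, the main nuclear export receptor, read 9.60, 9.63, 9.67 and 9.88 against 8.99, 9.13 and 8.96 (-0.67, SE 0.16, limma adjusted p = 0.225). A dimmer Xpo1 probe set differed by -0.28. The spliceosomal gene Snrpe differed by -0.18. Of 24 cytosolic ribosomal proteins 22 were lower, by a median of -0.05 (-0.02 without baseline replicate 4 and -0.09 without enalapril replicate 2), and of 26 proteasome genes 19 (median -0.05, or 0.0047 with arrays centred).

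Immune and blood lists came from dim probes in most cases. Of 11 T cell markers 10 were higher (median 0.45, or 0.17 with a pseudocount of 64), 2 with an unadjusted p under 0.05 (against 3.45% of all genes). Cd2, an adhesion receptor of T cells, read 5.24, 5.16, 5.57 and 4.60 at baseline and 5.78, 6.24 and 5.66 with enalapril (0.75, SE 0.33). The signalling chain gene Cd247 (0.45) overlapped, and its second probe set, of similar brightness, differed by -0.12. The cytokine receptor gene Il7r (0.49) did not overlap, and its dimmer probe set differed by -0.06. The summed T cell level was 299.4 to 373.1 at baseline and 440.2 to 490.1 with enalapril, and it was 311.5 to 400.5 with vehicle. S100a9 and S100a8, calcium-binding proteins of neutrophils and monocytes, were higher on every enalapril array. S100a9 read 7.77, 6.40, 7.65 and 6.43 at baseline and 9.33, 8.004 and 9.15 with enalapril (1.76, SE 0.74, limma adjusted p = 0.569). The neutrophil list held 5 measured markers, 3 higher and 2 lower (median 0.09, between 0.02 and 0.33 with an array left out). Another of these markers, the receptor gene Csf3r, had means of 5.62 and 5.71. Of 16 macrophage and monocyte markers 11 were higher (median 0.05, but between -0.08 and 0.15 with an array left out), with summed levels of 6188 to 10940 and 6709 to 9717. Of 31 inflammation genes 19 were lower (median -0.04, or 0.0063 without baseline replicate 4), and of 25 interferon-stimulated genes 19 (median -0.14, or -0.03 without baseline replicate 3). The median was 0.03 for 16 complement genes, between -0.04 and 0.13 with an array left out, and -0.06 for 10 genes of MHC class II presentation, between -0.15 and 0.05. It was 0.24 for 8 mast cell genes, between 0.07 and 0.28 (3 were on the floor throughout baseline), and -0.05 for 4 B cell genes, between -0.13 and 0.02. The adhesion receptor gene Vcam1 differed by 0.01, or -0.03 in the deposited values.

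Red cell markers varied within both groups. All 5 had lower means with enalapril (median -0.31, or -0.02 without enalapril replicate 1), and their score ran from -0.04 to 0.70 at baseline and from -0.62 to 0.58 with enalapril. Hbb, beta globin, read 14.15 to 14.20 at baseline and 13.88, 14.23 and 14.09 with enalapril. With the red cell score as a covariate 9 genes passed, among them Thbd (-0.57) and Nmu.

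**Figure D4:**
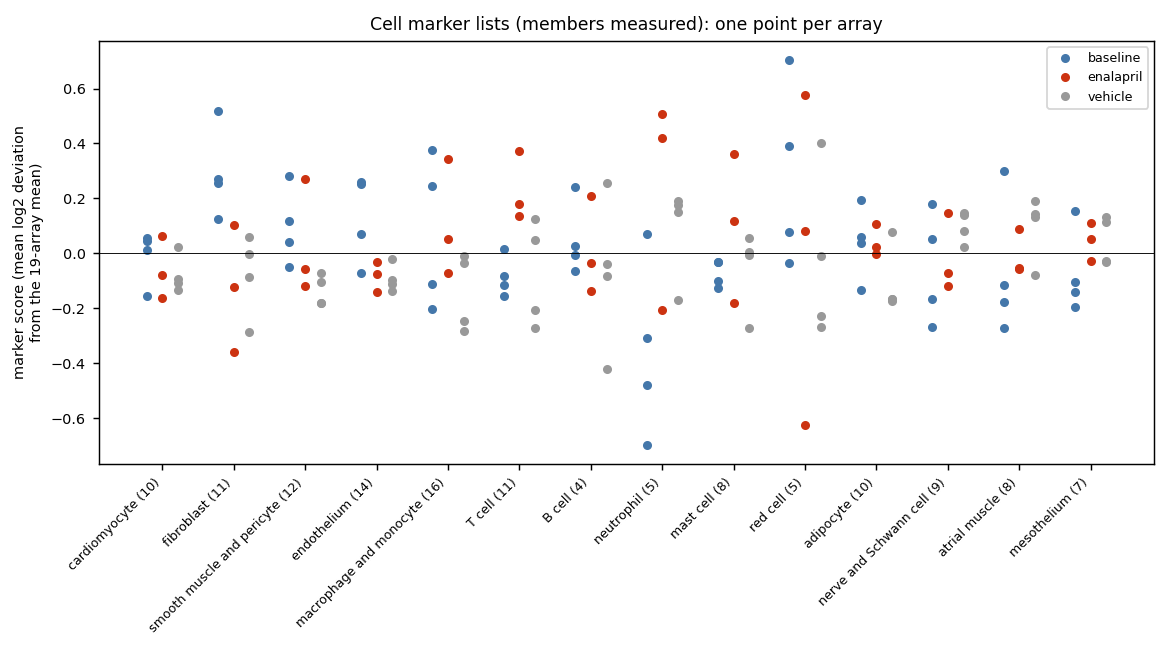
Mean log2 deviation of each marker list from its mean over 19 arrays, with a point per array for baseline (blue), enalapril (red) and vehicle (grey). Fibroblast scores are 0.13 to 0.52 at baseline and -0.36 to 0.11 with enalapril, T cell scores -0.15 to 0.02 and 0.14 to 0.37, and red cell scores overlap widely.

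Vehicle rats of the same age and diet were compared with the same 4 baseline arrays, so the 2 comparisons share them and their values are only set side by side. In vehicle against baseline 12 genes passed the limma test (0.0844%), among them Thbd at -0.49 and Nmu. Igf2 differed from baseline by -0.95 with enalapril and by -0.91 with vehicle. Enpep stood at -0.62 and -0.54, Mmp14 at -0.83 and -0.77, Sparc at -0.44 and -0.32, and Hibch at 0.33 and 0.31. Fibrillar and interstitial matrix had a median of -0.23 with enalapril and -0.44 with vehicle. For matricellular proteins the medians were -0.31 and -0.11, for endothelial markers -0.17 and -0.12, and for T cell markers 0.45 and 0.03. In several lists the vehicle median was as far from baseline or further. These were ion channels (0.12 and 0.24), fatty acid genes (0.10 and 0.10), basement membrane (-0.15 and -0.25), cell cycle (-0.19 and -0.24) and splicing (-0.06 and -0.16). In others the signs differed, such as vitamin D genes (0.11 and -0.07) and macrophage markers (0.05 and -0.23).

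The difference between the comparisons is enalapril against vehicle, in which the baseline means cancel. The baseline arrays still enter its normalization, choice of probe set and estimate of the spread. There 0 of 14217 genes passed the limma test (smallest adjusted p = 0.435), 802 had an unadjusted p under 0.05 (5.64%), and 1219 had groups without overlap (8.57%). Thbd differed by -0.06 (SE 0.08) between enalapril and vehicle, Igf2 by -0.04 (SE 0.15) and Nmu was on or within 0.01 of the floor in both. Cacna2d1 differed by -0.61 (SE 0.14), Ccdc71 by -0.33 (SE 0.07) and Hdgf by -0.30 (SE 0.07), each with a limma adjusted p of 0.623. As given above, these genes also had low means in paricalcitol rats without enalapril. Lss, lanosterol synthase, read 5.74 to 5.92 at baseline, 5.93, 6.13 and 6.15 with enalapril and 6.61 to 6.85 with vehicle. Enalapril arrays were the middle group, with differences of 0.24 from baseline and -0.67 (SE 0.16, limma adjusted p = 0.623) from vehicle. Insig1, a brake on sterol synthesis, had enalapril values of 8.88 to 8.98 against 8.64 to 8.97 and, with vehicle, 9.21 to 9.34. Dtx4, a ubiquitin ligase gene, also had intermediate values with enalapril, at 6.05 to 6.86 against 6.95 to 7.10 and, with vehicle, 5.52 to 5.98. Its probe set used here differed by -0.62 between enalapril and baseline, and its dimmer probe sets by 0.04 and 0.14. The other Lss probe set was on the floor. Cdkn1a differed from vehicle by 0.49 (SE 0.17) and Mmp8 by 0.98 (SE 0.30), with limma adjusted p of 0.791 and 0.776. In the deposited values without normalization the median of all genes shifted by -0.20 in vehicle against baseline and by 0.17 in enalapril against vehicle; in enalapril against baseline it shifted by -0.02.

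**Figure D5:**
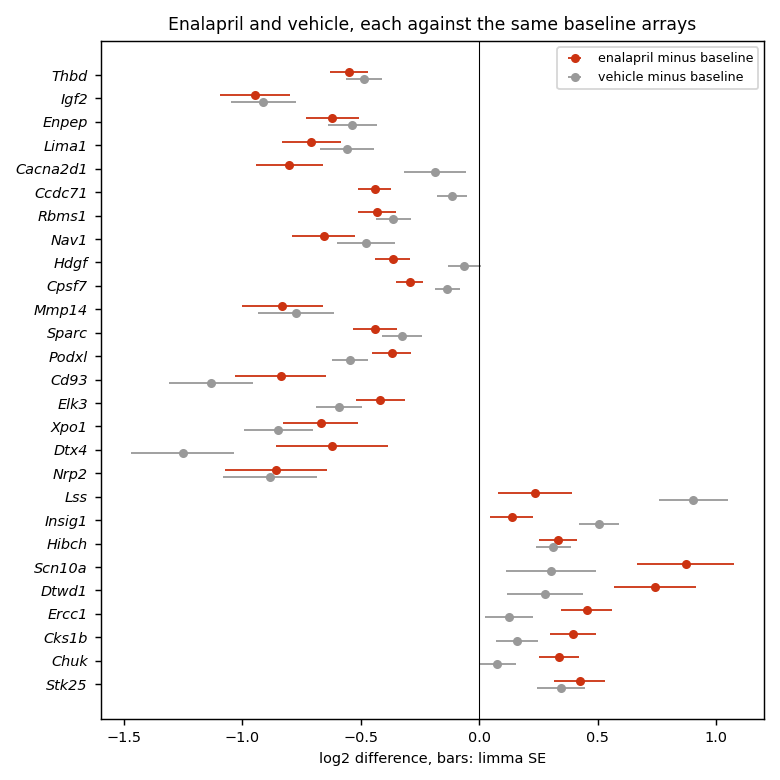
Log2 differences from the same 4 baseline arrays for enalapril (red) and vehicle (grey), with bars of 1 limma SE, for 27 genes. Thbd, Igf2, Mmp14 and Hibch sit at nearly the same place in both; Cacna2d1 (-0.80 and -0.19), Lss (0.24 and 0.90) and Scn10a (0.87 and 0.30) do not.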

How the data were processed

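RNA from 19 left ventricles was measured on 1 Affymetrix array each, from 5 ug of total RNA with an integrity number above 9, per the labels' protocols. The values the authors deposited are linear intensities, 1 per probe set; the tool that made them is not given in the sources used here. Of 31099 probe sets, 57 are controls, 20826 name 1 gene, 436 several and 9780 none. Symbols were taken through gene identifiers for 20758 probe sets and through accessions for 2. Arrays were quantile normalized over the non-control probe sets, negative values set to 0, and log2(value + 16) taken. The probe set with the highest mean stood for each of 14217 genes.

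One limma model of group means (version 3.58.1, R 4.3.3, eBayes with trend) covered all 19 arrays; p-values were Benjamini-Hochberg adjusted over all genes, with a threshold of 0.05. The scripts were tested on simulated data. No 2 arrays were identical. The comparison, the lists and the named genes were chosen with earlier results of these data known. Genes were named if they passed, if they were among the 10 per direction with the smallest p above the median gene and without overlap, among the 3 smallest p of a list, on a fixed panel, or past the threshold in vehicle against baseline; exceptions are stated. Alternatives changed the scaling, pseudocount, filter, variance model, probe set rule, covariates and arrays used. Promoters are RefSeq's, GRCr8.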

Additional observations from a re-analysis of the deposited data

Results flagged for a closer look

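Among 153 values tested in the baseline group of 4 arrays, 7 had an array whose gap to the nearest other array was large against the group's range (Dixon's test, which chance passes in about 1 of 20 groups). The 7 are about as many as chance alone would give. Baseline replicate 4 was the array in 4 of them: Myh6 read 11.57 (others 13.11 to 13.35), Prc1 4.77 (others 6.26 to 6.56), Jph2 10.9 and Asph 10.35. Baseline replicate 1 was high in Cd93, at 8.14 against 7.57 to 7.67, and low in the vitamin D score, at -0.15 against 0.01 to 0.04. Baseline replicate 3 was high in the interferon score, at 0.53 against 0.01 to 0.08. Groups of 3 arrays, such as enalapril, were not tested this way.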

How the results depend on the processing

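Enalapril against baseline gave 2 genes by limma. It gave 0 with the deposited values not equalised between arrays (678 genes at an unadjusted p under 0.05), with arrays centred on their medians (1091), with a pseudocount of 64 (1143), with only the groups compared (1415), with probe sets averaged (1079) and with the replicate block (1197). It gave 3 with cyclic loess, 6 with a pseudocount of 4, 4 with dimmer genes left out, 4 without a variance trend, 18 with array weights and 9 with the red cell score. Leaving out an array gave 0 to 5. Vehicle against baseline gave 12, and 3 with the deposited values, 22 centred, 160 with array weights, 45 with only the groups compared, 7 with probe sets averaged, 52 with the red cell score, 19 with the replicate block and 0 to 5 with an array left out. Enalapril against vehicle gave 0, 1 with a pseudocount of 4, and 0 to 2 with an array left out. The causes were not tested. Arrays of equal replicate number had correlations of deviations of 0.15, -0.05 and 0.01 in the first comparison. In vehicle against baseline these were -0.12, 0.22, -0.09 and -0.0046. With so few arrays they cannot decide whether equal numbers mark pairs. The labels state no pairing, and the main model used none.

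Thbd kept a difference of -0.58 to -0.46 over 19 alternatives and passed in 7; Nmu passed in 6 of 18. Of 105 named genes 97 kept their sign in every alternative run, and of 49 lists 28 did. Many of these genes were named for a small p or for groups without overlap on the same arrays, so a kept sign was likely in advance. The 97 include Agt, whose difference was 0 and ran from -0.0076 to 0.0544, since a value of 0 could not count as turned. With probe sets averaged, the sign turned for Cpsf7 (from -0.29 to 0.0147), Atp2a2 (-0.0962), Pdha1 (-0.0449) and Ryr2 (-0.0443). Cyclic loess turned Nppa (-0.0635), Atp2a2 (-0.0286) and Tnnt2 (-0.0693). The deposited values turned Nppa (-0.025), Vcam1 (-0.0347) and Tnnt2 (-0.0315), and centring the arrays turned Myh7 (0.0019). With an array left out, Myh7 ran from -0.0526 to 0.0105 and Vcam1 from -0.0574 to 0.097. Signal over background limits Nmu, Far1 and other genes near the floor.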
